A study of Mus musculus with 9 samples.

Results

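The 10 genes described here encode enzymes that cut, rebuild or convert lysophospholipids in mouse colon. They were taken by name from the deposited expression table, which lists 55401 entries: the lysophosphatidylcholine acyltransferases Lpcat1, Lpcat2, Lpcat3 and Lpcat4, the related acyltransferase Mboat1, the phospholipases A2 Pla2g4a, Pla2g5, Pla2g10 and Pla2g12a, and Enpp2, which encodes autotaxin. The rule that picks them uses their names and no measured value, though it was written with earlier results of these data known. All 10 passed the filter on low values, a mean of at least 1 FPKM (fragments scaled by transcript length and library size) over the 9 libraries, as did 14506 entries in all. The lowest group mean of any of the 10 was 1.55 FPKM, for Lpcat1 in the high-fat diet group.

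RNA came from colonic tissue of mice labelled wild type, in 3 groups of 3 libraries. The berberine group is labelled only with that compound, a plant alkaloid, and its diet and any exposure to AOM/DSS are not in the labels. The high-fat diet and chow groups both carry AOM/DSS in their titles, an abbreviation commonly read as azoxymethane, a carcinogen, with dextran sulfate sodium, an irritant, which together model tumours that arise in colitis. The series sets out to see the antitumour action of berberine in gene expression. The labels give no strain, age, batch or duration, and they do not say whether the 9 libraries came from 9 animals, so p-values measure the spread between these samples, which may be partly technical.

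Membrane phospholipids are remodelled in a cycle of cutting and rejoining. A phospholipase A2 removes the fatty acid from the middle carbon of the glycerol backbone and leaves a lysophospholipid and a free fatty acid, such as arachidonic acid, the precursor of prostaglandins. A lysophospholipid acyltransferase puts a new fatty acid back, so the balance between both kinds of enzyme sets which fatty acids a membrane holds. Autotaxin takes lysophosphatidylcholine out of that cycle by cutting off choline, which makes lysophosphatidic acid, a ligand of cell surface receptors that is broken down by lipid phosphate phosphatases.

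Library totals ran from 51961764 to 69007117 estimated counts. A first principal component with 56.1% of the variance separated the high-fat diet libraries from the other 6. General epithelial markers were present throughout: Epcam, an epithelial adhesion protein, ran from 1386 to 2078 CPM (counts scaled to a common library size, adjusted by TMM) over the 9 libraries. Markers of other tissues differed between libraries, and where that RNA came from was not tested. The summed level of 10 striated muscle markers was 1617 CPM in chow replicate 3 and at most 58.5 CPM elsewhere. The summed level of 8 squamous epithelial markers was 6.49 to 21.2 CPM in berberine and 107 to 203 CPM in high-fat diet libraries, and 346, 3.77 and 14.4 CPM in chow replicates 1, 2 and 3. Berberine replicates 1 and 2 held 955 and 792 CPM of 9 adipocyte markers, against 53.3 CPM in berberine replicate 3.

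The promoters of 4 of these genes are shown because they differ in direction: Lpcat4 and Lpcat3 were lower and Mboat1 and Pla2g10 higher in the berberine libraries than in the high-fat diet libraries. Each window runs from 250 bases before to 50 bases after the RefSeq start (assembly GRCm38.p6), 5′ to 3′ on the strand of the gene. The windows are chr2:112239591-112239890 (plus strand) for Lpcat4, chr6:124662854-124663153 (plus strand) for Lpcat3, chr13:30136240-30136539 (plus strand) for Mboat1 and chr16:13730435-13730734 (minus strand) for Pla2g10. Capitals mark matches on either strand to the motifs described after them.
Lpcat4: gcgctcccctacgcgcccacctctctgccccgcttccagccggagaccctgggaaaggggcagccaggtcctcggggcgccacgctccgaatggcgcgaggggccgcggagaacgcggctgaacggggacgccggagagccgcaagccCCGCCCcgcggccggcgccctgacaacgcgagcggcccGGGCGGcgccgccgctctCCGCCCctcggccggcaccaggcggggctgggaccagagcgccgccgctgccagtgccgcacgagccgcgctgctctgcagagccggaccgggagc
Lpcat3: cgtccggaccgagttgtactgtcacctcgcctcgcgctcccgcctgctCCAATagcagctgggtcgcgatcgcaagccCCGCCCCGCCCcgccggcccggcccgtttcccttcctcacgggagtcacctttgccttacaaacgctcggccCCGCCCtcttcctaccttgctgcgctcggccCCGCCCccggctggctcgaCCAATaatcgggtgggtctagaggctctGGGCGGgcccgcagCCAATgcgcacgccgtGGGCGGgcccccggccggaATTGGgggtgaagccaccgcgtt
Mboat1: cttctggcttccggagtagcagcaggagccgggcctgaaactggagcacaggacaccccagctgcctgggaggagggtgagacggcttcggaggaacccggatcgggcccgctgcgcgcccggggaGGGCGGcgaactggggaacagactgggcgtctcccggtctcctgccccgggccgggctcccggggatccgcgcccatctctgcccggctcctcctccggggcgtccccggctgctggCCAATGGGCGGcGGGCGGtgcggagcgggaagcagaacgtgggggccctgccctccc
Pla2g10: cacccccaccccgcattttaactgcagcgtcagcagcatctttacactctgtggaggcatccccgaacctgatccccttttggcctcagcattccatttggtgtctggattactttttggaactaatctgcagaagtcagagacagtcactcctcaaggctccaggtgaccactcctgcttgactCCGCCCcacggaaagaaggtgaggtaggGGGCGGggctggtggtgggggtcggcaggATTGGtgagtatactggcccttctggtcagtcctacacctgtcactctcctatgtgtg

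A set of 5 motifs was searched on both strands in these windows and in those of the other members. A RefSeq window was found for 9 of the 10 members, the exception being Enpp2. The GC box, GGGCGG, occurs in 35.7% of all 32851 RefSeq mouse promoter windows of this length. It was found 6 times in the Lpcat3 window, where a pair of matches share a base, 3 times each in the Lpcat4 and Mboat1 windows and 2 times in that of Pla2g10. The CCAAT box, present in 37.4% of all windows, was found 4 times for Lpcat3 and 1 time each for Mboat1 and Pla2g10, and not for Lpcat4. None of the 9 windows held the TCF/LEF core CTTTGA, which 16% of all windows hold, or the AP-1 site TGANTCA, which 7.81% hold, and of the 9 only that of Lpcat2 held TATAAA, found in 13.6% of all windows. GC content was 79.0% for Lpcat4, 74.3% for Mboat1, 71.0% for Lpcat3 and 55.7% for Pla2g10, against a median of 52.7% over all windows. The RefSeq start of Lpcat4 lies 373 bases from the start in the deposited table, that of Pla2g10 499 bases, that of Lpcat3 77 bases and that of Mboat1 1 base. For Pla2g12a, whose window is counted but not printed, the distance is 2578 bases. The windows of Lpcat4, Pla2g10 and Pla2g12a do not hold the start in the table. Their motif matches and GC content therefore describe the RefSeq start only. A match shows only that these letters are there.

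In the high-fat diet group, against chow, both Lpcat4 and Pla2g12a rose, by 5.19-fold and 3.51-fold, while Enpp2, Mboat1, Pla2g10 and Pla2g4a fell. Both kinds of remodelling enzyme were found on each side: an acyltransferase and a phospholipase rose, and an acyltransferase and 2 phospholipases fell beside autotaxin. A gene is said to have risen or fallen where edgeR's quasi-likelihood test gave an adjusted p under 0.05 (Benjamini-Hochberg over all 14506 genes tested), and fold changes are the high-fat diet over the chow mean. By this test 2 members were higher and 4 lower in the high-fat diet group and 4 were not called. Of all genes tested, 31.8% were called, 15.2% as higher and 16.6% as lower. With library totals alone as the scaling, 59.8% of the called genes were higher, against 47.7% with TMM scaling, and the median log2 fold change of all genes was 0.13. The members called then were Lpcat3 in place of Pla2g4a and the other 5. With TMM scaling the groups did not overlap for 9 members, 3 higher and 6 lower, against 45.7% of all genes tested, 23.2% higher and 22.6% lower. The median log2 fold change of the 10 was -0.55, against 0.002 over all genes tested, and the median absolute value was 1.22 against 0.45. DESeq2 called 9 members, all but Pla2g5, and 38.5% of all genes. The plot of CPM by library shows all 10.

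**Figure D1:**
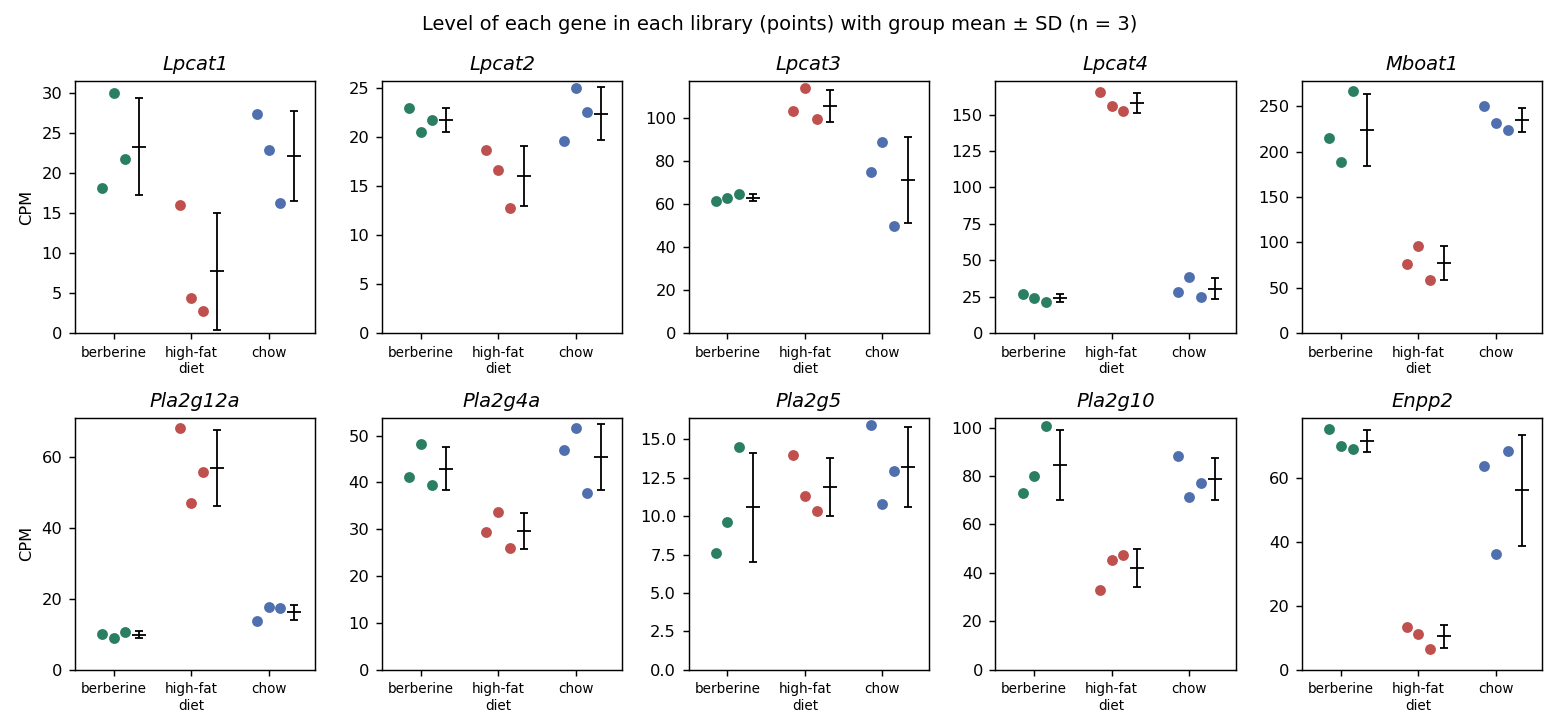
CPM on TMM-scaled library sizes (vertical axis of each panel, from 0) of the 10 enzymes in the berberine, high-fat diet and chow libraries. Points are libraries in the order of their replicate numbers, and bars are the mean ± SD of 3 libraries. The high-fat diet points of Lpcat4 (152 to 166 CPM) and Pla2g12a (46.9 to 68.1 CPM) lie above all others, and those of Mboat1, Pla2g10, Pla2g4a and Enpp2 below all others.

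Lpcat4 encodes an acyltransferase that acts on lysophosphatidylcholine and lysophosphatidylethanolamine. The gene (ENSMUSG00000027134, chromosome 2, 112239468 to 112247111, build GRCm38) had 26.6, 24.2 and 21.5 CPM in the berberine libraries, 166, 156 and 152 CPM in the high-fat diet libraries, and 27.9, 38.5 and 24.9 CPM in the chow libraries. All high-fat diet libraries lay far above every other library, and the berberine and chow libraries overlapped. In high-fat diet against chow the mean was 158 ± 6.98 CPM against 30.4 ± 7.19 CPM (SD, n = 3 each), a log2 fold change of 2.38 ± 0.18 (SE, edgeR adjusted p = 0.00013). Berberine libraries were 6.56-fold lower than high-fat diet libraries, with a log2 fold change of -2.71 ± 0.18 (adjusted p = 6.63e-05). Against chow the berberine value was -0.34, with a 95% interval from -0.73 to 0.05 (adjusted p = 0.505). Both larger changes were called under all 20 alternative settings. The high-fat diet libraries differed least among themselves in this gene, with a coefficient of variation of 4.42%.

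Lpcat3 encodes the acyltransferase that places polyunsaturated fatty acids into phosphatidylcholine, and in mouse intestine it is known for a role in lipid absorption. It had 61.3, 62.6 and 64.5 CPM in the berberine libraries, 103, 114 and 99.5 CPM in the high-fat diet libraries, and 74.9, 88.7 and 49.6 CPM in the chow libraries. The high-fat diet libraries lay above all others, the berberine libraries spread over a 1.05-fold range, and the chow libraries spread over a 1.79-fold range on both sides of berberine. Lpcat3 fell in berberine against high-fat diet, with a log2 fold change of -0.75 ± 0.19 (SE, edgeR adjusted p = 0.0194), a 1.68-fold lower mean. That call was lost without berberine replicate 1 (adjusted p = 0.0577), without berberine replicate 2 (adjusted p = 0.0611) or without high-fat diet replicate 2 (adjusted p = 0.0573). High-fat diet against chow gave a log2 fold change of 0.57 ± 0.19, which did not pass the test (adjusted p = 0.0513). It passed in 8 of 20 alternative settings, among them the one without chow replicate 2 (0.76, adjusted p = 0.0194). The end of Emg1 overlaps that of Lpcat3 on the opposite strand. Emg1, a ribosome biogenesis gene, had a log2 fold change of 0.50 in high-fat diet against chow (adjusted p = 0.0421) and -0.19 in berberine against high-fat diet (adjusted p = 0.394), and its part in the Lpcat3 values was not tested.

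Lpcat1, known best for making the saturated phosphatidylcholine of lung surfactant, had 18.1, 30.0 and 21.7 CPM in the berberine libraries, 16.0, 4.345 and 2.69 CPM in the high-fat diet libraries, and 27.3, 22.8 and 16.2 CPM in the chow libraries. High-fat diet replicate 1 lay just under the lowest chow library in CPM and above it in FPKM (3.25 against 3.05). The other high-fat diet libraries were several times lower. This was the most variable member within a group, with a 5.96-fold range and a coefficient of variation of 94.6% in the high-fat diet libraries. Its log2 fold change was -1.52 ± 0.60 (SE) in high-fat diet against chow, short of edgeR's threshold (adjusted p = 0.0828). Without high-fat diet replicate 1 it was -2.66 (adjusted p = 0.00303). It was 1.60 ± 0.60 in berberine against high-fat diet (adjusted p = 0.0738), and without the same library 2.74 (adjusted p = 0.00251).

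Lpcat2 encodes an acyltransferase that also makes platelet-activating factor in inflammatory cells. It had 22.9, 20.5 and 21.8 CPM in the berberine libraries, 18.7, 16.6 and 12.8 CPM in the high-fat diet libraries, and 19.6, 25.0 and 22.6 CPM in the chow libraries. In CPM the high-fat diet libraries were the 3 lowest, by a small margin. In FPKM high-fat diet replicate 1 (5.19) lay above chow replicate 1 (5.10). The log2 fold change was -0.48 ± 0.18 in high-fat diet against chow (SE, edgeR adjusted p = 0.0675) and 0.44 ± 0.18 in berberine against high-fat diet (adjusted p = 0.0922), so neither was called. Without high-fat diet replicate 1 the high-fat diet value was -0.61 and passed (adjusted p = 0.0481).

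Because FPKM is scaled by transcript length, the 4 Lpcat genes can be set beside each other on that scale. Their summed level was 34.1 ± 1.43 FPKM in berberine, 88.2 ± 6.99 FPKM in high-fat diet and 37.4 ± 6.82 FPKM in chow libraries (SD, n = 3 each). Lpcat4 held 21.8 ± 2.28% of that sum in berberine, 59.2 ± 1.63% in high-fat diet and 24.6 ± 2.06% in chow libraries. Lpcat3 held 49.1 ± 2.00% in berberine, 34.1 ± 2.29% in high-fat diet and 49.1 ± 3.99% in chow libraries, and was the leading gene in all 6 berberine and chow libraries. The share of Lpcat1 was 12.8 ± 3.07% in berberine, 1.70 ± 1.55% in high-fat diet and 10.9 ± 2.09% in chow libraries. The share of Lpcat2 was 16.4 ± 1.22% in berberine, 4.97 ± 0.67% in high-fat diet and 15.5 ± 3.54% in chow libraries. These shares are a description, with no test.

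**Figure D2:**
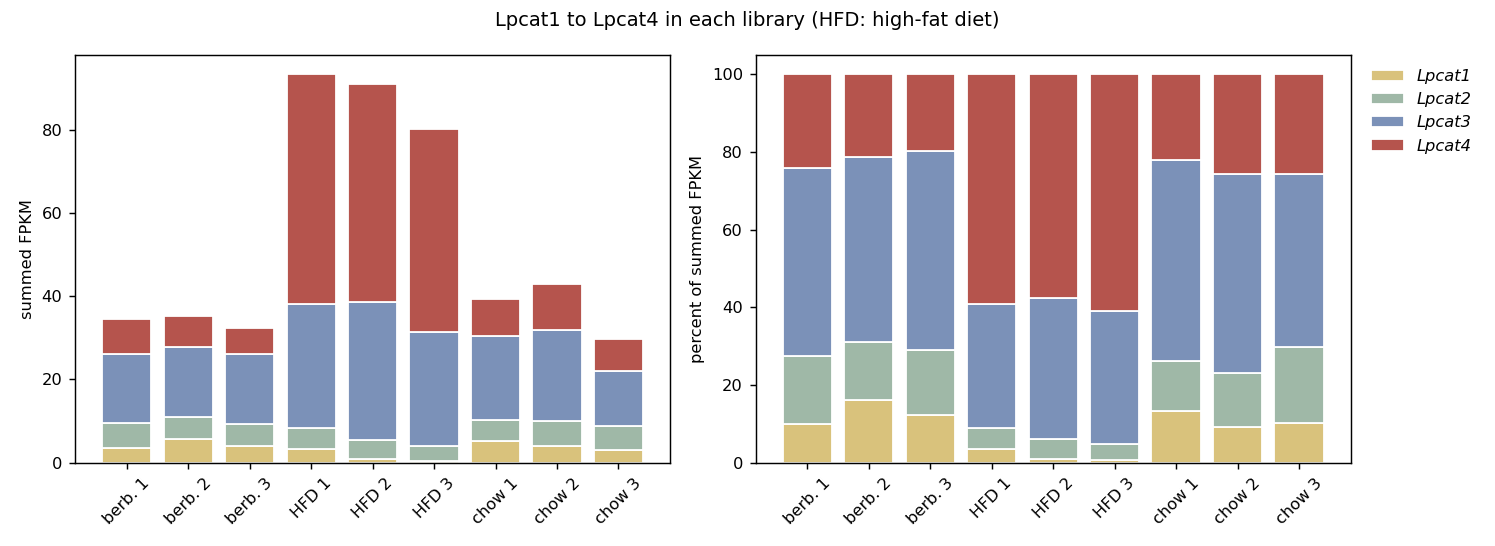
Summed FPKM of Lpcat1 to Lpcat4 in each library (left, vertical axis from 0) and the percent of that sum held by each gene (right), for berberine, high-fat diet (HFD) and chow replicates 1 to 3. The high-fat diet bars reach 80.2 to 93.4 FPKM and all others at most 43.0 FPKM, and Lpcat4 takes 57.6 to 60.8% of the high-fat diet bars.

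Mboat1 encodes an acyltransferase that acts mainly on lysophosphatidylserine and lysophosphatidylethanolamine. The gene (ENSMUSG00000038732, chromosome 13, 30136489 to 30232033) had 215, 189 and 267 CPM in the berberine libraries, 76.4, 95.9 and 58.1 CPM in the high-fat diet libraries, and 249.7, 231 and 224 CPM in the chow libraries. All high-fat diet libraries were well below all others. The high-fat diet mean was 76.8 ± 18.9 CPM and the chow mean 235 ± 13.3 CPM (SD, n = 3 each), a log2 fold change of -1.61 ± 0.20 (SE, edgeR adjusted p = 0.000787), or 3.06-fold lower. It was 1.54 ± 0.20 in berberine against high-fat diet (adjusted p = 0.000999). Between berberine and chow it was -0.07, with a 95% interval from -0.51 to 0.37. On the FPKM scale Mboat1 was the most abundant of the 10 in berberine (53.1 ± 8.24 FPKM) and in chow (55.0 ± 4.72 FPKM), though its range overlapped that of Pla2g10 in both groups.

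The remaining lysophospholipid acyltransferases were examined as a list of 15 genes, of which 13 were tested. Of these 1 rose, 3 fell and 9 did not pass in high-fat diet against chow, and the median log2 fold change was 0.02. That share of calls is near the 31.8% of all genes tested. The gene that rose was Mboat2, a close relative of Mboat1, with 29.6 ± 1.45 CPM in high-fat diet against 8.58 ± 6.24 CPM in chow libraries (1.79 ± 0.44, edgeR adjusted p = 0.0157). Agpat4 fell by 1.43 ± 0.24 on the log2 scale (adjusted p = 0.00321), Lclat1 by 1.33 ± 0.24 (adjusted p = 0.00404) and Gpat3 by 1.95 ± 0.56 (adjusted p = 0.0293). Agpat4 makes phosphatidic acid from lysophosphatidic acid, Lclat1 remodels cardiolipin and phosphatidylinositol, and Gpat3 performs the first acylation of glycerol-3-phosphate. The same 4 genes were the ones called in berberine against high-fat diet, each in the other direction, a comparison that shares its high-fat diet libraries with the first. Mboat2 was named after its value was seen, as was Gpat3.

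Among the phospholipases, Pla2g12a encodes a small secreted enzyme of group XII. It had 10.1, 8.81 and 10.7 CPM in the berberine libraries, 68.1, 46.9 and 55.6 CPM in the high-fat diet libraries, and 13.7, 17.6 and 17.3 CPM in the chow libraries. No groups overlapped, with high-fat diet on top and berberine lowest. The high-fat diet mean was 56.9 ± 10.7 CPM and the chow mean 16.2 ± 2.18 CPM (SD, n = 3 each), a log2 fold change of 1.81 ± 0.18 (SE, edgeR adjusted p = 0.00036). Berberine libraries were 5.76-fold lower than high-fat diet libraries (-2.53 ± 0.19, adjusted p = 9.81e-05). The log2 fold change of berberine against chow was -0.72 ± 0.18, with an edgeR adjusted p = 0.288 over all genes and a DESeq2 adjusted p = 0.0239.

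Pla2g10 encodes the secreted group X enzyme, which acts well on phosphatidylcholine and is known from mouse colonic epithelium. It had 73.1, 80.1 and 101 CPM in the berberine libraries, 33.1, 45.4 and 47.4 CPM in the high-fat diet libraries, and 88.3, 71.2 and 77.2 CPM in the chow libraries. Every high-fat diet library was below every other library. The log2 fold change was -0.91 ± 0.18 in high-fat diet against chow (SE, edgeR adjusted p = 0.00639), 1.012 ± 0.18 in berberine against high-fat diet (adjusted p = 0.00416) and 0.10 in berberine against chow (95% interval from -0.31 to 0.51). An antisense transcript, Pla2g10os, overlaps the gene on the opposite strand and ran from 1.44 to 6.27 CPM.

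Pla2g4a encodes cytosolic phospholipase A2 alpha, the enzyme that releases arachidonic acid for prostaglandin synthesis. It had 41.1, 48.1 and 39.5 CPM in the berberine libraries, 29.4, 33.7 and 26.0 CPM in the high-fat diet libraries, and 46.9, 51.6 and 37.7 CPM in the chow libraries. The high-fat diet libraries were the 3 lowest, and the margin to the next library was small. The log2 fold change was -0.61 ± 0.16 in high-fat diet against chow (SE, edgeR adjusted p = 0.01995) and 0.53 ± 0.16 in berberine against high-fat diet (adjusted p = 0.0355). The first call was lost in 8 and the second in 11 of 20 alternative settings. The first call ended without high-fat diet replicate 1 (0.0509) and without replicate 3 of that group (0.0631), and likewise without chow replicate 1 (0.0556) and without chow replicate 2 (0.0621), each value an adjusted p. The second was lost without any 1 of the berberine libraries, without high-fat diet replicate 1 or 3 and without chow replicate 1, with adjusted p from 0.0537 to 0.119.

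Pla2g5, another secreted enzyme, had no call in any comparison, as was the case for Lpcat1 and Lpcat2. It had 7.61, 9.63 and 14.5 CPM in the berberine libraries, 14.0, 11.4 and 10.4 CPM in the high-fat diet libraries, and 16.0, 10.8 and 12.9 CPM in the chow libraries. All 3 groups overlapped. The log2 fold change was -0.15 in high-fat diet against chow, with a 95% interval from -0.78 to 0.47, and -0.17 in berberine against high-fat diet, from -0.80 to 0.46, so changes of up to about those bounds could not be seen.

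The gene for Pla2g2a, a secreted phospholipase A2 of Paneth cells and inflamed tissue, lies inside the span of Pla2g5 on the opposite strand (chromosome 4, 138831857 to 138835186, within 138799244 to 138863482). It had 12.7, 26.6 and 71.9 CPM in the berberine libraries, 13280, 6125 and 5987 CPM in the high-fat diet libraries, and 80.9, 64.9 and 9.96 CPM in the chow libraries. It rose in high-fat diet against chow by 7.35 ± 1.06 on the log2 scale (SE, edgeR adjusted p = 0.00157), a 163-fold higher mean, while Pla2g5 around it did not pass. It fell in berberine against high-fat diet by 7.84 ± 1.08 on the log2 scale (adjusted p = 0.00133). The library kit marks strand, per the labels' protocols, but the strand setting used in counting is not given in the sources used here.

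Of the other 9 secreted phospholipases A2, 5 were tested. In high-fat diet against chow Pla2g2a and Pla2g2f rose, Pla2g3 and Pla2g12b fell, and Pla2g2d did not pass (-0.74, edgeR adjusted p = 0.0696). Pla2g3 had 4.42 ± 0.40 CPM in high-fat diet against 25.1 ± 12.3 CPM in chow libraries, a log2 fold change of -2.50 ± 0.38 (adjusted p = 0.00197). Pla2g2d, described in lymphoid tissue, had 26.9 ± 1.196 CPM in berberine against 9.87 ± 2.15 CPM in high-fat diet libraries (1.44 ± 0.28, adjusted p = 0.00577). The only other cytosolic enzyme above the filter, Pla2g4f of 5 listed, did not pass in either comparison (-0.57 and 1.17). Of 13 tested calcium-independent, lysosomal and platelet-activating factor hydrolysing enzymes, 2 rose and 4 fell in high-fat diet against chow. Pafah1b2, a subunit of an intracellular platelet-activating factor acetylhydrolase, rose by 0.66 ± 0.09 (adjusted p = 0.00136), and Plaat3, a phospholipase of adipose and other tissues, fell by 0.71 ± 0.16 on the log2 scale (adjusted p = 0.0104). Of 4 tested genes from the list named receptors and binding proteins of secreted phospholipases A2, 3 rose: Anxa2, Anxa1 and Plaa. The receptor gene of that list, Pla2r1, was below the filter (mean 0.63 FPKM). These data do not show that the 3 bind such enzymes. Anxa2, a calcium-dependent binder of membrane phospholipids, had 1659 ± 124 CPM in high-fat diet against 628 ± 49.3 CPM in chow libraries (1.40 ± 0.15, adjusted p = 0.000504).

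Enpp2 had 75.3, 69.8 and 69.1 CPM in the berberine libraries, 13.5, 11.2 and 6.46 CPM in the high-fat diet libraries, and 63.6, 36.3 and 68.3 CPM in the chow libraries. The gene (ENSMUSG00000022425, chromosome 15, 54838901 to 54920125) was lowest in the 3 high-fat diet libraries. In CPM all berberine libraries lay above all chow libraries by a small margin. In FPKM these groups overlapped, with chow replicate 3 (10.31) above berberine replicate 3 (10.09). In high-fat diet against chow the mean was 10.4 ± 3.60 CPM against 56.1 ± 17.3 CPM (SD, n = 3 each), a log2 fold change of -2.43 ± 0.31 (SE, edgeR adjusted p = 0.000955), or 5.39-fold lower. Berberine libraries were 6.87-fold higher than high-fat diet libraries (2.78 ± 0.32, adjusted p = 0.000586). Against chow the berberine value was 0.35, with a 95% interval from -0.33 to 1.02 (adjusted p = 0.712). The lowest chow value belongs to replicate 2. In bulk tissue fewer cells of a type and less RNA per cell cannot be told apart, which holds for Enpp2 and every other gene here.

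Autotaxin is made by high endothelial venules and adipocytes, among other cells. Of 8 tested genes of endothelium and high endothelial venules, 5 were lower in high-fat diet against chow. The summed level of the 9 listed ran from 218 to 235 CPM in berberine, 84.2 to 134 CPM in high-fat diet and 189 to 207 CPM in chow libraries. A large part of that sum was a single gene, Chst4. It was at 51.1 to 76.2 CPM in berberine, 6.62 to 19.0 CPM in high-fat diet and 44.4 to 86.8 CPM in chow libraries. In chow replicate 2 it held 86.8 CPM of a sum of 201.7 CPM, so the gap between the sums leans on this gene. Glycam1, a mucin of high endothelial venules, was at 6.25 to 10.97 CPM in berberine, 0.21 to 1.16 CPM in high-fat diet and 3.49 to 12.1 CPM in chow libraries. Other genes of that list did not follow it: Vwf, the von Willebrand factor gene, was at 7.76 to 19.2 CPM in berberine, 20.9 to 30.4 CPM in high-fat diet and 14.3 to 16.7 CPM in chow libraries, and Cdh5, an endothelial cadherin gene, at 11.7 to 19.9 CPM in berberine, 9.68 to 20.4 CPM in high-fat diet and 12.6 to 13.4 CPM in chow libraries. The 9 adipocyte markers summed to 53.3 to 955 CPM in berberine, 33.1 to 50.0 CPM in high-fat diet and 118 to 197 CPM in chow libraries. Enpp2 was at 69.1 CPM in berberine replicate 3, the library with 53.3 CPM of adipocyte markers, and at 75.3 and 69.8 CPM in the berberine libraries with 955 and 792 CPM. The part of endothelial cells and of adipocytes in the Enpp2 result was not tested.

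The receptors of lysophosphatidic acid and the list of lipid phosphate phosphatases were examined beside Enpp2. Lpar1, a receptor for lysophosphatidic acid, had 62.5, 58.2 and 76.0 CPM in the berberine libraries, 21.0, 21.6 and 27.1 CPM in the high-fat diet libraries, and 78.5, 57.1 and 77.4 CPM in the chow libraries. It fell in high-fat diet against chow (-1.61 ± 0.18, edgeR adjusted p = 0.000511) and rose in berberine against high-fat diet (1.497 ± 0.18, adjusted p = 0.00068). Another receptor, Lpar6, rose in high-fat diet against chow by 0.53 ± 0.15 (adjusted p = 0.0297), and Lpar5 did not pass (0.38, adjusted p = 0.386). Of 11 tested lysophospholipid receptors in all, 2 rose, 5 fell and 4 did not pass, with a median log2 fold change of -0.66. Those that fell were Lpar1, the sphingosine 1-phosphate receptors S1pr3 and S1pr4, and P2ry10 and Gpr132, receptors found on lymphocytes and other leukocytes. Beside them, 7 of 8 tested B cell markers and 6 of 7 tested T cell markers were lower, and the part of these cells in the receptor values was not tested. Of 6 tested genes from the list of lipid phosphate phosphatases 2 fell and none rose. Plpp3, which degrades lysophosphatidic acid at the cell surface, fell by 0.70 ± 0.16 on the log2 scale (edgeR adjusted p = 0.0105). Plpp6 fell by 0.59 ± 0.15 (adjusted p = 0.0166). The remaining genes did not pass, among them Plpp1 (-0.12, adjusted p = 0.544) and Plpp2 (-0.34, adjusted p = 0.345). These data do not show which of them act on lysophosphatidic acid.

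Lysophospholipases, which remove the last fatty acid, and other lysophospholipase D enzymes gave 2 genes that rose and 2 that fell of 12 tested. Abhd12, a hydrolase of lysophosphatidylserine, had 111 ± 25.8 CPM in high-fat diet against 41.5 ± 2.91 CPM in chow libraries (1.42 ± 0.17, edgeR adjusted p = 0.000695). Abhd16a, which makes lysophosphatidylserine, fell by 0.65 ± 0.11 on the log2 scale (adjusted p = 0.00338). Of 17 tested genes of phosphatidylcholine and phosphatidylethanolamine synthesis, 3 rose, 7 fell and 7 did not pass. Chpt1, the choline phosphotransferase that completes phosphatidylcholine, had 18.6 ± 5.604 CPM in high-fat diet against 69.7 ± 9.0 CPM in chow libraries (-1.91 ± 0.23, adjusted p = 0.000732). Cept1, which serves both choline and ethanolamine phospholipids, fell by 0.90 ± 0.13 on the log2 scale (adjusted p = 0.00153). Mfsd2a, a transporter of lysophosphatidylcholine that carries polyunsaturated fatty acids, rose by 3.51 ± 0.59 (adjusted p = 0.0031) and was named after its value was seen, as were Lpar5, Lpar6, S1pr4, P2ry10, Gpr132, Pla2g2f, Pla2g12b, Plpp2 and Anxa1. Over all 9 lists, 15 of 82 tested genes rose, 25 fell and 42 did not pass, with a median log2 fold change of -0.18, where 15.2% of all genes tested rose and 16.6% fell. The counts of each list are to be read against the same shares.

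**Figure D3:**
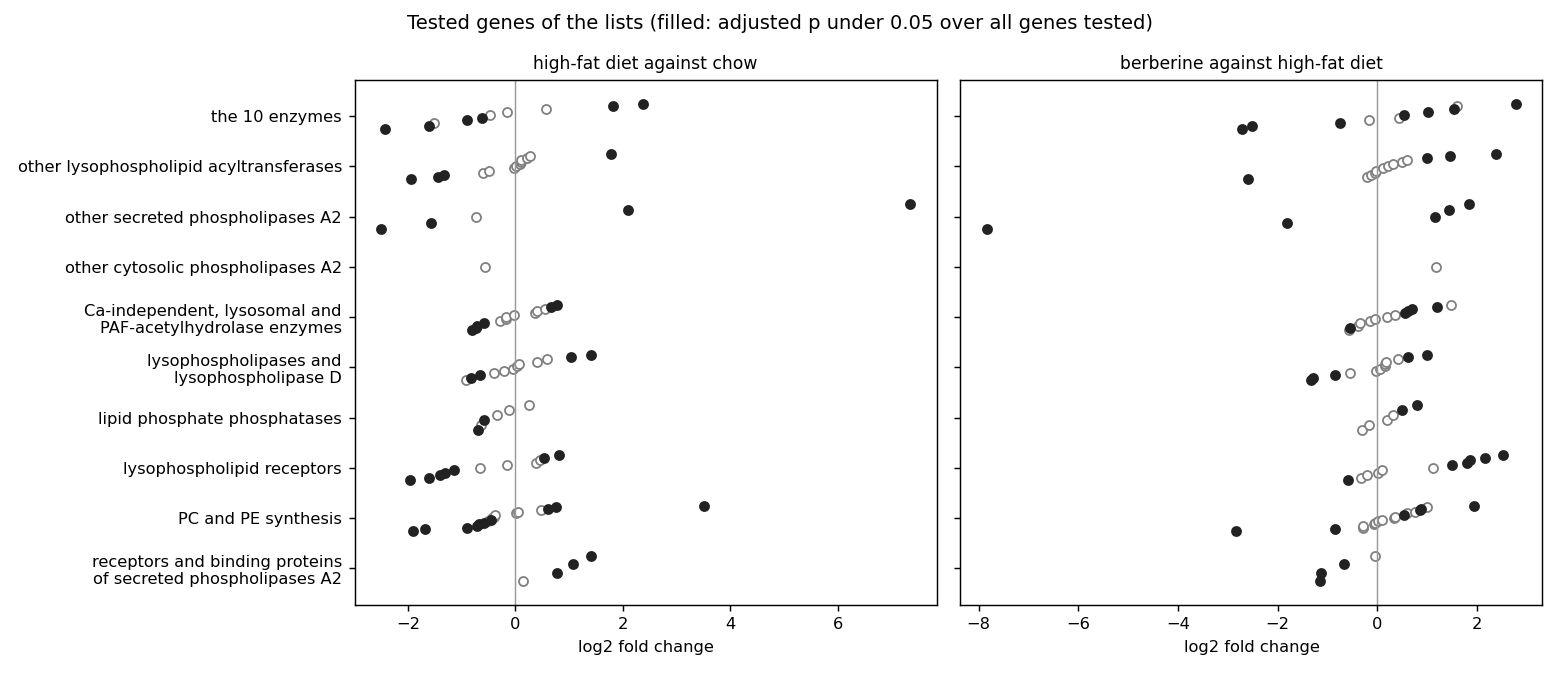
Log2 fold change (horizontal axis) of each tested gene, grouped by list, in high-fat diet against chow (left) and berberine against high-fat diet (right). Filled points have an edgeR adjusted p under 0.05 over all 14506 genes tested. Members lie on both sides of 0 in both panels, Pla2g2a is the far point among the other secreted phospholipases A2 (7.35 left, -7.84 right), and the right panel shares its high-fat diet libraries with the left.

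In berberine against high-fat diet, Enpp2, Mboat1, Pla2g10 and Pla2g4a were higher and Lpcat4, Pla2g12a and Lpcat3 lower in the berberine libraries. By edgeR's test 4 members were thus higher, 3 lower and 3 not called, where 30.7% of all genes tested were called, 15.8% as higher and 14.9% as lower. The groups did not overlap for 9 members, 6 higher and 3 lower, against 50.4% of all genes, 24.8% higher and 25.6% lower. The median log2 fold change of the 10 was 0.49 and the median over all genes tested -0.007. DESeq2 called 8 members and 37.7% of all genes. With library totals alone 40.9% of the called genes were higher, against 51.4% with TMM scaling. Of the 82 tested genes of the other lists 23 were higher and 13 lower in berberine. This comparison and that of high-fat diet with chow rest on the same 3 high-fat diet libraries, so the values of the members in both are given side by side and their opposite signs are no separate result.

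**Figure D4:**
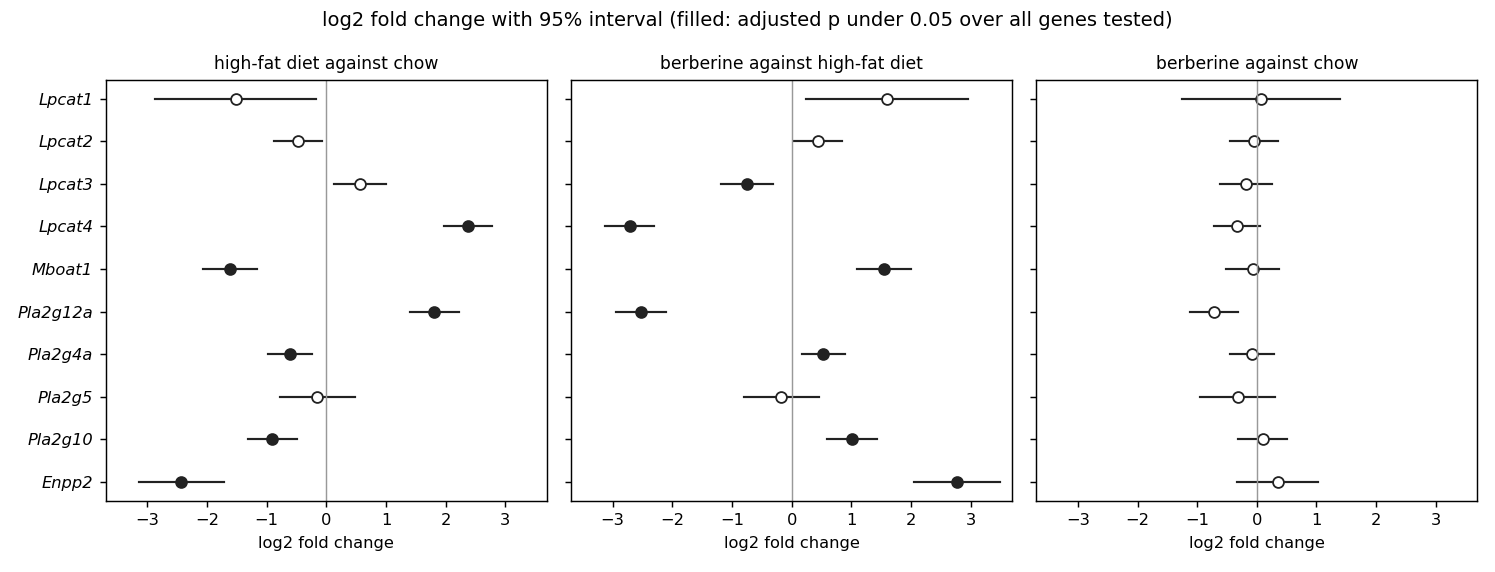
Log2 fold change (horizontal axis) of the 10 enzymes with its 95% interval in high-fat diet against chow, berberine against high-fat diet, and berberine against chow. Filled points have an edgeR adjusted p under 0.05 over all 14506 genes tested: 6 points in the first panel, 7 in the second and none in the third, where Pla2g12a (-0.72) lies farthest from 0.

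In berberine against chow none of the 10 members passed edgeR's test, and 1, Pla2g12a, had an unadjusted p under 0.05 and was called by DESeq2. Few genes were called between these groups: edgeR called 7 of 14506 genes, or 0.0483%, of which 6 were higher (0.0414%) and 1 lower (0.00689%). An unadjusted p under 0.05 by the same test was found for 1579 genes. DESeq2 called 380 genes, or 2.62%. In CPM the groups did not overlap for 2 members, Enpp2 as higher and Pla2g12a as lower in berberine, against 18.1% of all genes, 8.73% higher and 9.37% lower. In FPKM those of Enpp2 overlapped. The 95% intervals of the members' log2 fold changes were widest for Lpcat1, from -1.25 to 1.40, Enpp2, from -0.33 to 1.02, and Pla2g5, from -0.95 to 0.30. Those of Lpcat2, Lpcat3, Lpcat4, Mboat1, Pla2g4a and Pla2g10 all held 0 and lay between -0.73 and 0.51. A value that missed the threshold does not show that berberine and chow libraries had the same level. Of the 82 tested genes of the other lists edgeR called none, 7 had an unadjusted p under 0.05, and DESeq2 called 1, Gpr55, a receptor for lysophosphatidylinositol, at 11.2 ± 2.77 CPM in berberine against 5.91 ± 0.42 CPM in chow libraries (0.92 ± 0.24). The genes with the smallest p in the other 8 lists were Mboat7 (0.31 ± 0.13), Pla2g2d (0.70 ± 0.27), Pla2g4f (0.60 ± 0.42), Pnpla3 (2.02 ± 0.95), Abhd6 (-0.76 ± 0.33), Plpp1 (-0.29 ± 0.14), Ptdss1 (0.55 ± 0.18) and Anxa2 (0.26 ± 0.15), each a log2 fold change ± SE that did not pass. Ptdss1, a phosphatidylserine synthase, was at 68.7 ± 9.20 CPM in berberine against 46.8 ± 9.95 CPM in chow libraries. Pnpla3, a lipid droplet enzyme, was at 9.11, 4.36 and 0.58 CPM in the berberine libraries, highest in the libraries with the most adipocyte markers, against at most 2.47 CPM in chow libraries.

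The order of the members on the FPKM scale differed between the groups as a description. In berberine Mboat1 (53.1 FPKM) and Pla2g10 (48.8 FPKM) came first, well above Lpcat3 (16.7 FPKM), Enpp2 (10.8 FPKM) and Lpcat4 (7.43 FPKM). In high-fat diet Lpcat4 (52.2 FPKM) stood above Lpcat3 (30.1 FPKM), Pla2g10 (25.9 FPKM), Mboat1 (19.6 FPKM) and Pla2g12a (14.4 FPKM), of which neighbours in that order overlapped apart from Lpcat4 and Lpcat3. In chow Mboat1 (55.0 FPKM) and Pla2g10 (45.02 FPKM) again came first, and Lpcat3 (18.5 FPKM) stood above Lpcat4 (9.155 FPKM) and Enpp2 (8.37 FPKM), which overlapped. From Pla2g4a down to Pla2g12a, all at 6.06 FPKM or less, every neighbour in the chow order overlapped the next, as it did in the berberine order. Pla2g12a was last in berberine (2.33 FPKM) and chow (3.755 FPKM) and the fifth in high-fat diet. Below it in high-fat diet, Lpcat2 (4.41 FPKM), Pla2g4a (4.33 FPKM) and Pla2g5 (3.84 FPKM) overlapped. Enpp2 (1.68 FPKM) and Lpcat1 (1.55 FPKM) were last in high-fat diet and overlapped.

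For each member called in at least 1 comparison, the 2 genes with the most similar profile over the 9 libraries were found by Euclidean distance on log2(CPM + 1), each profile less its own mean. For Enpp2 these were Chgb (distance 0.62) and Chga (0.64), which encode chromogranins of neuroendocrine granules. Chga had 94.4 ± 4.84 CPM in berberine, 17.3 ± 3.33 CPM in high-fat diet and 89.6 ± 27.2 CPM in chow libraries. For Mboat1 they were the cation channel gene Mcoln2 (0.32) and Scnn1a (0.51), a subunit of the epithelial sodium channel, at 103 ± 13.0 CPM in berberine, 36.3 ± 11.1 CPM in high-fat diet and 128 ± 6.82 CPM in chow libraries. For Lpcat4 they were the LIM domain gene Ajuba (0.45) and the transcript 2810404F17Rik (0.46), and for Pla2g12a Neurl1a (0.48) and the glycine transporter gene Slc6a9 (0.53). For Pla2g10 they were Cs (0.38), which encodes citrate synthase, and the histone methyltransferase gene Kmt2c (0.38). For Lpcat3 they were 0610010F05Rik (0.30) and Tm7sf2 (0.33), a gene of cholesterol synthesis, and for Pla2g4a Slc25a16 (0.24) and Lnpep (0.26). These genes share the libraries, and with them the contrast between high-fat diet and the other groups.

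Markers of several cell types moved with the high-fat diet group. General epithelial genes summed to 11230 to 13440 CPM in berberine, 8981 to 11820 CPM in high-fat diet and 12160 to 13080 CPM in chow libraries. Absorptive colonocyte genes, of which 10 of 10 were lower in high-fat diet against chow, summed to 3541 to 5181 CPM in berberine, 616 to 1025 CPM in high-fat diet and 4708 to 10620 CPM in chow libraries. Goblet cell genes, of which 6 of 9 were lower, summed to 14550 to 26630 CPM in berberine, 1036 to 6713 CPM in high-fat diet and 10420 to 31620 CPM in chow libraries. Of 8 tested mast cell genes 7 were higher and 1 lower. The lower one was the receptor gene Kit, at 31.1 ± 8.73 CPM in high-fat diet against 87.2 ± 39.7 CPM in chow libraries (SD). The 9 listed genes summed to 74.5 to 90.4 CPM in berberine, 330.3 to 4609 CPM in high-fat diet and 66.5 to 135 CPM in chow libraries. Most of the berberine and chow sums was Kit, at 57.0 to 71.7 CPM in berberine and 58.2 to 132.5 CPM in chow libraries. Another gene of the list, Cpa3, was at most 1.55 CPM in berberine and 0.67 CPM in chow libraries. The berberine and chow sums therefore say little of the mast cell genes other than Kit. Of 10 tested smooth muscle genes 5 were lower in high-fat diet against chow, and none was called in berberine against chow. They summed to 4959 to 5898 CPM in berberine, 1667 to 7866 CPM in high-fat diet and 10020 to 14090 CPM in chow libraries. Of 7 tested squamous epithelial genes 2 were higher in high-fat diet against chow, with the sums given above. No gene of these lists was at 0 in every library. The part of these cell types in the values of the 10 enzymes was not tested.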

How the data were processed

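Poly(A) RNA of colonic tissue was sequenced from 9 libraries with stranded, paired-end reads and molecular identifiers in the adapters, per the labels' protocols. The deposited table gives an estimated count and an FPKM value per gene and library, per the file headers. The submitters' processing notes name build GRCm38 and the tools edgeR, DESeq2, StringTie 1.3.4d, HISAT2 2.0.4, cutadapt 1.9 and UMI-tools. Which step each tool served, the strand setting and the filters are not given in the sources used here. The authors' estimated counts are unnormalised whole numbers whose low values pile up at multiples of 4, so 1 fragment appears to be worth about 4 counts. Where a count is 0 the authors' FPKM reads 0.0001. Totals ran from 51961764 to 69007117 estimated counts, and with 3 libraries per group the spread between libraries sets the SE of each fold change.

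Genes that averaged 1 FPKM or more were fitted with edgeR 4.0.16 in R 4.3.3 (quasi-likelihood, TMM scaling, 1 mean per group, all 9 libraries), with Benjamini-Hochberg adjustment over all 14506 genes and calls under 0.05. The procedure was tested on simulated data. CPM are computed on TMM-scaled library sizes. Alternatives were another scaling, other filters, DESeq2 1.42.0, limma 3.58.1 on log2(FPKM + 1) and log2(FPKM + 0.1), counts divided by 4, a fit of only 2 groups, a replicate block and leaving out each library. The members, the lists and the markers were chosen with earlier results of these data known. The rule for named genes takes all 10 members, from each list the 2 tested genes with the smallest p in high-fat diet against chow and the 1 with the smallest p in berberine against chow, and the 2 genes nearest in profile to each called member. Promoter windows are from RefSeq (GRCm38.p6), with gene positions from the deposited table. Of 110 genes on the 9 lists, 108 were matched by symbol and 82 were tested. A summed level of genes that mark position along the colon is not reported here.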

Additional observations from a re-analysis of the deposited data

How the results depend on the processing

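Among the 20 alternatives, the calls of Lpcat4, Mboat1, Pla2g12a, Pla2g10 and Enpp2 in high-fat diet against chow and in berberine against high-fat diet kept their direction and passed under each one. Genes changed numbered 4613 in high-fat diet against chow and 3008 with a filter of at least 5 FPKM, where 8187 genes were tested, and 3573 to 4325 when 1 library was left out. In berberine against high-fat diet they numbered 4460, 2855 with that filter, and 2960 to 4740 when 1 library was left out, the lowest without berberine replicate 2. In berberine against chow edgeR called 7 genes, 380 by DESeq2 (1 member, Pla2g12a), 2 each with RLE size factors, a minimum of 12 counts in 3 libraries, counts divided by 4, a fit of only the 2 groups or the replicate block, and 1 to 7 when 1 library was left out. With limma on log2(FPKM + 1), 60.9% of the genes called in high-fat diet against chow were higher, and 40.8% of those called in berberine against high-fat diet. The cause of these shifts was not tested. With counts in place of FPKM the share of Lpcat4 was 18.3% in berberine, 55.1% in high-fat diet and 20.9% in chow, that of Lpcat1 17.6% in berberine and 15.2% in chow, and that of Lpcat3 36.8% in high-fat diet. Only values that were never called changed sign. When 1 library was left out, the log2 fold change of Pla2g5 ran from -0.290 to 0.005 in high-fat diet against chow and from -0.474 to 0.019 in berberine against high-fat diet. In berberine against chow that of Lpcat1 ran from -0.152 to 0.25, that of Lpcat2 from -0.135 to 0.041, that of Lpcat3 from -0.378 to 0.012, that of Mboat1 from -0.223 to 0.038, that of Pla2g4a from -0.196 to 0.018 and that of Pla2g10 from -0.049 to 0.196. Lpcat1 and Pla2g5 were not tested at 5 FPKM. Same-numbered libraries correlated between -0.071 and 0.139 in their deviations from the group means, and differently numbered ones between -0.193 and 0.169. These values show no sign of pairing by number. They cannot exclude a shared origin of some samples, on which the labels are silent. The replicate block gave 4344 and 4286 changed genes in the first 2 comparisons, called 7 and 8 members, and added Lpcat3 in high-fat diet against chow (adjusted p = 0.0476) and Lpcat1 in berberine against high-fat diet (adjusted p = 0.0445).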
